A study of Homo sapiens with 12 samples.

Results

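The death receptors of the tumour necrosis factor (TNF) family and caspase 8 were followed in Colo320DM cells, a human colorectal cancer line, in which TET1 had been stably knocked down. The members were every gene on the array named TNFRSF1A, FAS, TNFRSF10A, TNFRSF10B, TNFRSF10C, TNFRSF10D, TNFRSF21, TNFRSF25 or CASP8, that is 9 genes with 13 probes, out of 32080 gene names and 50599 distinct probes. RNA of 6 clones was hybridised to 12 one-colour Agilent arrays, 3 in each of 4 groups. The 3 control clones carried the pcDNA6.2-GW/EmGFP-miR-neg plasmid and the 3 knockdown clones carried a TET1 knockdown vector that expresses an artificial microRNA against TET1. Every clone gave a pair of arrays, 1 from mock-treated cells and 1 from cells kept for 72 h in 1 µM 5-aza-dC, that is 5-aza-2'-deoxycytidine, which traps DNA methyltransferases and lowers DNA methylation. All 6 clones had been selected with G418 and picked as GFP-positive colonies, so each clone stands for 1 transfected colony of 1 cell line. More than one TET1 knockdown vector was used. The study names the vector of each knockdown clone, but the sample labels, from which the groups were taken, do not, and clones were not split by vector.

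Death receptors are membrane proteins with a cytoplasmic death domain. When a ligand of the TNF family binds, the death domains gather adaptor proteins, and in the receptors for FAS ligand and for TRAIL the adaptor FADD brings caspase 8 to the membrane, where it is activated and starts apoptosis. Decoy receptors bind the ligand TRAIL without a complete death domain and so do not pass on the signal. In colorectal cancer cells FAS and the TRAIL receptors have long been studied as routes into apoptosis, and silencing of death receptor genes and of CASP8 by promoter methylation has been described in several tumours.

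Levels are given as log2 signal, the log2 of the background-corrected signal of a probe minus the 75th percentile of its array, so that 0 is the level of the 75th percentile probe. Such levels compare arrays for 1 probe and do not rank one gene above another. A probe counts as detected on an array where the scanner file marked it well above background. Between 45.7% and 52.9% of all probes were detected per array, and the dimmest detected probe lay between -4.34 and -3.56. The brightest TET1 probe gave 4.23 to 4.67 in mock control clones and 3.51 to 3.59 in mock knockdown clones, with no overlap. Under 5-aza-dC it gave 4.06 to 4.42 in control clones and 2.98 to 4.31 in knockdown clones. There knockdown clone 2 lay within the control range, while both other TET1 probes separated the clone types under 5-aza-dC. In mock clones A_19_P00806490 separated them too. A_23_P322756 overlapped narrowly in mock clones, with a lowest control value of -1.15 and a highest knockdown value of -1.14. Of the epithelial markers, KRT8, KRT18 and CDX2 were detected on all 12 arrays, EPCAM on 10, VIL1 on 1 and CDH1 on 0. Of the leukocyte genes, PTPRC and CD14 were also detected on all 12 arrays, CD3D on 8 and CD3E on 4. The arrays lay on 2 slides. Mock arrays were on slide 1 except that of control clone 3, and treated arrays were on slide 2 except those of knockdown clones 1 and 3.

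TNFRSF1A and FAS each had a group with no detected array beside a group with all 3 detected. Their promoters are shown because DNA methylation, which 5-aza-dC lowers, lies mainly at cytosines followed by guanine (CG). These CG are in capitals. Each is the 250 bases before a RefSeq transcript start of GRCh38.p14, read 5' to 3' on the strand of the gene. TNFRSF1A lies on the minus strand at chr12:6342077-6342326 and has 4 CG. The FAS window, the first of 3 listed, lies on the plus strand at chr10:88990548-88990797 and has 14 CG, and the other FAS windows have 19 and 11.
TNFRSF1A: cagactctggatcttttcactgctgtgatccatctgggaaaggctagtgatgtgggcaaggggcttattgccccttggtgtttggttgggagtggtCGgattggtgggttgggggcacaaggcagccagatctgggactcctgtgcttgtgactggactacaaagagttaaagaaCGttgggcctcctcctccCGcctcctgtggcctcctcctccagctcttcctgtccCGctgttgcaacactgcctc
FAS: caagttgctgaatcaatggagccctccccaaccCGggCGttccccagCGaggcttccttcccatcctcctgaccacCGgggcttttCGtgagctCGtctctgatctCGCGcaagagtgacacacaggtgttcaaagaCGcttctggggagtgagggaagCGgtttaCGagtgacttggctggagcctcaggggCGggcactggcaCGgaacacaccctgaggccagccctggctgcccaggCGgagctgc
Searching for CG finds the same sites on both strands. Of 35116 windows of this length, 34.3% held 4 CG or fewer 57.1% held 14 or fewer, 67.6% held 19 or fewer and 51.5% held 11 or fewer, with a median of 11. The windows of TNFRSF25 and TNFRSF21 held 26 and 20 CG, and the 3 windows of CASP8 held 5 or 6. These are counts of letters in the reference, and methylation was not measured in these arrays.

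By its brightest probe, each of the 9 genes was detected on at least 1 array. TNFRSF10A, TNFRSF10B, TNFRSF10D, TNFRSF21, TNFRSF25 and CASP8 were detected on all 12 arrays, TNFRSF1A on 9, FAS on 7 and TNFRSF10C on 1. Among all 13 probes 6 were detected on every array, 5 on some and 2 on none. The plot of levels by array shows these patterns.

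**Figure D1:**
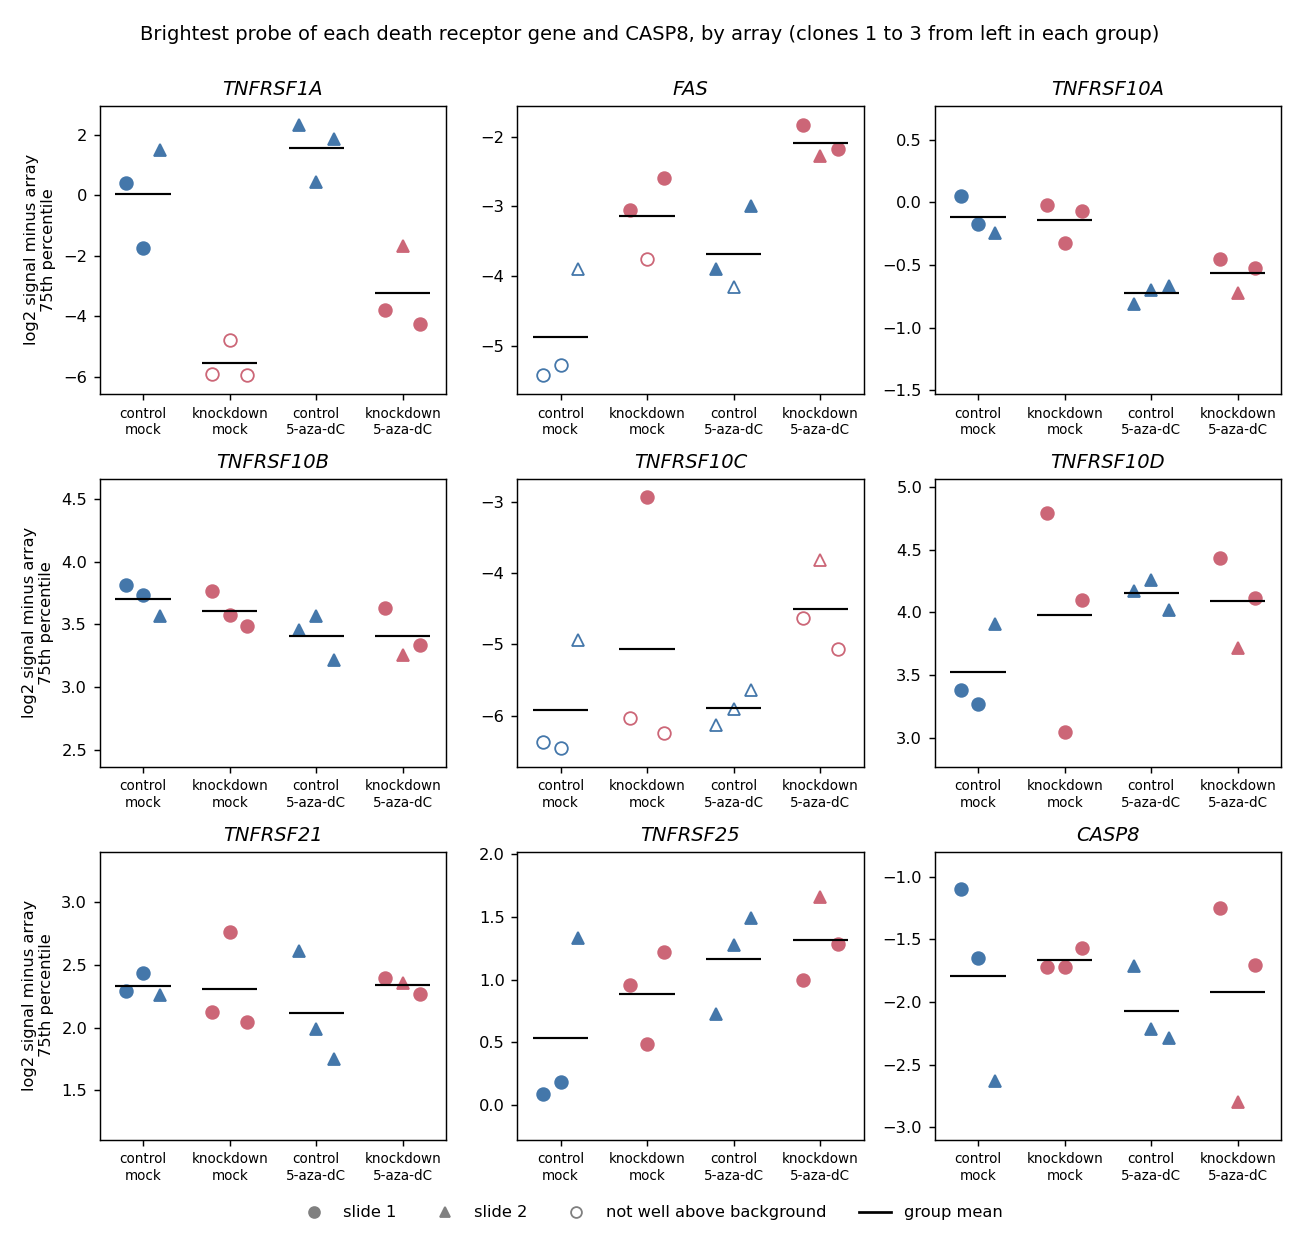
Each panel gives the log2 signal (y axis, log2 signal minus the array's 75th percentile) of the brightest probe of 1 gene on the 12 arrays, in 4 groups along the x axis with clones 1 to 3 from left to right. Filled symbols are detected, open ones are not well above background, circles and triangles mark slides 1 and 2, and bars are group means. TNFRSF1A was detected on none of the mock knockdown arrays and TNFRSF10C on 1 of 12, and TNFRSF10A lay lower in both treated groups.

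TNFRSF1A encodes TNF receptor 1, the main receptor for TNF, whose death domain recruits TRADD. Its single probe (A_23_P139722; hg19 chromosome 12, 6438064 to 6438123) gave 0.39, -1.74 and 1.50 in mock control clones 1 to 3 and -5.92, -4.80 and -5.95 in mock knockdown clones 1 to 3. All control clones were thus detected and no mock knockdown clone was, and the groups did not overlap. The signal was at least 15.7-fold higher in control than in knockdown clones, where the bound sets the control mean against the dimmest detected signal of the knockdown arrays. The limma fit tested all 24750 probes detected on at least 3 arrays of this comparison. TNFRSF1A met that filter through the control arrays alone, the group where it was high. The limma log2 difference of knockdown minus control was -5.60 (SE 0.82, adjusted p = 0.123, n = 3 against 3) and did not pass 0.05. Fitting all 12 arrays together gave the same difference an adjusted p of 0.0310. On slide 1 alone, 3 knockdown arrays against 2 control arrays, the difference was -4.88, and with normexp background correction and quantile normalization together it was -2.53.

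Under 5-aza-dC all 3 knockdown clones were detected, at -3.79, -1.69 and -4.25, against 2.33, 0.43 and 1.87 in control clones. The groups again did not overlap, and the difference of -4.78 (SE 0.77, adjusted p = 0.102) did not pass. Knockdown clone 2 was the highest of its group. Without it the difference was -5.56 (adjusted p = 0.00466), and with all 12 arrays in 1 fit the adjusted p was 0.0437. On slide 2 alone, 1 knockdown array against 3 control arrays, it was -3.23.

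TNFRSF1A was higher after 5-aza-dC than after mock in 6 of 6 clones, by 1.94, 2.17 and 0.37 in control clones 1 to 3 and by 2.13, 3.12 and 1.70 in knockdown clones 1 to 3. Over all clones the difference was 1.90 (SE 0.63, adjusted p = 0.0702). In knockdown clones it was 2.31 (SE 0.71, adjusted p = 0.340), where TNFRSF1A met the filter for a test through the treated arrays alone. No mock knockdown array was detected, so the fold is given as a bound of at least 1.61-fold. In control clones the difference was 1.49 (SE 0.89, adjusted p = 0.315). None of these passed. The bound depends on treated knockdown clone 2, the only treated knockdown array on slide 2. Treated knockdown clones 1 and 3 averaged -4.02, and the dimmest detected probe of the mock knockdown arrays lay at -3.85, -3.72 and -4.21. The difference in control clones lay between 0.60 and 2.22 without 1 array, the lowest without mock control clone 2 and the highest without mock control clone 3, was 0.05 within slide 2, and was -0.0074 with all 12 arrays in the fit and slide as a block. With the clone as a block, so that each treated array was set against the mock array of the same clone, the difference over all clones had an adjusted p of 0.0105. The 3 clones whose arrays shared a slide moved by 0.37 to 2.13.

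Probes around TNFRSF1A on chromosome 12 were compared between clone types in the same way. In mock clones the median log2 difference of knockdown minus control was 0.02 over 53 other tested probes within 1 Mb of its probe, ranging from -1.59 to 2.02, and -0.20 over 1187 tested probes of chromosome 12, against 0.04 over all probes. In 5-aza-dC clones the median was -0.19 over 53 probes within 1 Mb, ranging from -2.28 to 1.14, and -0.27 over 1204 tested probes of chromosome 12, against -0.01 over all probes. The medians of the chromosome were thus below 0 in both comparisons, while that within 1 Mb was 0.02 in mock and -0.19 in 5-aza-dC clones. Whether these values bear on TNFRSF1A was not tested.

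FAS encodes the receptor for FAS ligand, which binds FADD through its death domain. Its brightest probe (A_23_P63896; hg19 chromosome 10, 90774545 to 90774604) gave -5.42, -5.28 and -3.90 in mock control clones 1 to 3, none of them detected, and -3.06, -3.75 and -2.60 in mock knockdown clones, of which clones 1 and 3 were detected. The direction between clone types was thus opposite to that of TNFRSF1A. Too few arrays were detected for a test, and the bound was at least 1.91-fold higher in knockdown clones. On slide 1 alone the difference was 2.21.

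Treated control clones gave -3.90, -4.15 and -2.99 for FAS, with clones 1 and 3 detected, and treated knockdown clones gave -1.83, -2.28 and -2.18, all detected. Again the knockdown clones lay above all control clones, and the difference of 1.59 (SE 0.34, adjusted p = 0.153) did not pass. Leaving out treated knockdown clone 2 gave 1.68 (adjusted p = 0.0246).

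FAS rose with 5-aza-dC over all clones, by 1.11 on the log2 scale (limma, SE 0.32, adjusted p = 0.0467). The change was upward in 6 of 6 clones, by 0.41 to 1.51, and by 0.41 to 1.23 in the 3 clones whose arrays shared a slide. The call lay close to the threshold, and it was lost in 12 of 15 other settings, with slide as a block at 0.82 (adjusted p = 0.220) and without any 1 clone other than control clone 3. In knockdown clones alone the difference was 1.04 (SE 0.33, adjusted p = 0.380) without overlap, and in control clones FAS was not tested.

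The other FAS probes were dimmer. A_33_P3381127, which partly covers the same bases, was detected only in knockdown clones 1 and 3, at -3.62 and -3.08 after mock and -2.33 and -2.89 after 5-aza-dC, and its change over all clones was 0.34 (SE 0.49, adjusted p = 0.658). A_33_P3332112, upstream of both in the same gene, was detected on 0 of 12 arrays.

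TNFRSF10A and TNFRSF10B encode the TRAIL receptors with a death domain, DR4 and DR5, and TNFRSF10C and TNFRSF10D encode decoy receptors for TRAIL. The 4 genes lie side by side on chromosome 8, with their probes between 22877776 and 23049312 in hg19.

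The probe of TNFRSF10A (A_23_P255653) gave 0.05, -0.17 and -0.24 in mock control clones and -0.81, -0.70 and -0.67 in the same clones after 5-aza-dC. Knockdown clones gave -0.02, -0.33 and -0.07 after mock and -0.45, -0.72 and -0.52 after treatment. In both clone types every treated array lay below every mock array. TNFRSF10A fell by 0.51 on the log2 scale with 5-aza-dC over all clones (SE 0.12, adjusted p = 0.0177), and it was lower in 6 of 6 clones. The 3 clones on a shared slide gave nearly equal values, -0.45 to -0.43. With slide as a block the difference was -0.41 (adjusted p = 0.0555), and without control clone 1, control clone 2, knockdown clone 1 or knockdown clone 3 the adjusted p lay above 0.05, at 0.111, 0.0875, 0.0617 and 0.0723. Within control clones the difference was -0.60 (adjusted p = 0.0879) and within knockdown clones -0.42 (adjusted p = 0.598). Between clone types the mock difference was -0.02, with a 95% confidence interval of -0.47 to 0.43.

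TNFRSF10B (A_24_P218265) varied least over the 12 arrays among the 6 genes detected on all of them, with an SD of 0.19. It gave 3.81, 3.74 and 3.57 in mock control clones and 3.45, 3.57 and 3.21 after treatment. Knockdown clones gave 3.76, 3.57 and 3.49, and 3.63, 3.26 and 3.33 after treatment. All 6 clones were lower after 5-aza-dC, by 0.14 to 0.36, and the difference over all clones of -0.25 (SE 0.13, adjusted p = 0.197) did not pass. Scaling each array to its median in place of the 75th percentile gave -0.49 (adjusted p = 0.0292). Between mock clone types the difference was -0.10, with an interval of -0.53 to 0.34.

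The decoy receptors differed in detection. TNFRSF10C (A_23_P256724) was detected only in mock knockdown clone 2, at -2.94, and lay between -6.45 and -3.81 on the other 11 arrays, so it was not tested. TNFRSF10D (A_33_P3326588) was detected on every array. It gave 3.38, 3.27 and 3.91 in mock control clones and 4.17, 4.26 and 4.02 after treatment, without overlap. The difference of 0.63 in control clones (SE 0.22, adjusted p = 0.140) did not pass, but without mock control clone 3, the only mock control array on slide 2, it was 0.82 (adjusted p = 0.0121). Within slide 2 it was 0.24. Knockdown clones gave 4.79, 3.04 and 4.10 after mock and 4.44, 3.72 and 4.12 after treatment, and overlapped throughout.

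TNFRSF25 encodes DR3, the death domain receptor for TL1A. Its brightest probe (A_23_P126844) gave 0.09, 0.19 and 1.33 in mock control clones and 0.72, 1.28 and 1.49 after 5-aza-dC, and in knockdown clones 0.96, 0.48 and 1.23 against 1.00, 1.66 and 1.29. It was higher after treatment in 6 of 6 clones, but the 3 clones on a shared slide moved by only 0.04 to 0.16 while the others moved by more. Over all clones the difference was 0.53 (SE 0.26, adjusted p = 0.182). In control clones the difference was 0.63 (SE 0.39, adjusted p = 0.332), 1.03 without mock control clone 3 (adjusted p = 0.0327) and -0.17 within slide 2. The second probe, A_33_P3234530, was detected on 0 of 12 arrays.

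TNFRSF21 encodes DR6, a death domain receptor with roles in lymphocytes and neurons. Its probe (A_23_P30666) ranged from 1.75 to 2.76 over the 12 arrays, and 3 of 6 clones were higher after 5-aza-dC. The mock difference between clone types was -0.02, with an interval of -0.61 to 0.56, and the difference over all clones with 5-aza-dC was -0.09 (SE 0.18, adjusted p = 0.754). All 4 groups overlapped.

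CASP8 encodes the initiator caspase of the pathway. Its brightest probe (A_24_P157087; hg19 chromosome 2, 202151838 to 202151897) ranged from -1.72 to -1.10 on the 7 arrays of slide 1 and from -2.80 to -1.71 on the 5 arrays of slide 2, ranges that hardly overlap, whereas all 4 groups overlapped. Clones that stayed on 1 slide changed by -0.14 to 0.47 with 5-aza-dC, and the difference over all clones was -0.26 (SE 0.31, adjusted p = 0.577). Between mock clone types the difference was 0.12, with an interval of -0.81 to 1.06. The probe for transcript variant E, A_24_P148499, was detected only in mock control clones 1 and 2, at -3.36 and -3.79. CASP8 varied most over the 12 arrays among the 6 genes detected on all of them (SD 0.52), and of 17534 named probes detected on every array those of RAB11FIP1, PANK3 and RBM27 had the pattern most like it, with Pearson's r of 0.95, 0.94 and 0.94 over the 12 arrays. These arrays share slides and treatments, and the correlations are a description.

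Counted over probes, none of the 7 member probes tested between mock clone types passed at an adjusted p under 0.05, where 0.137% of all tested probes did, and none of 8 passed under 5-aza-dC, where 0.104% did. At an unadjusted p under 0.05 limma counted 1 and 2, against 11.2% and 19.3% of all probes. Within control clones none of 7 passed with 5-aza-dC, against 5.2% of all probes, and within knockdown clones none of 9, against 2.05%, with 2 at an unadjusted p under 0.05 in each, against 26.5% and 9.15%. Over all clones 2 of 9 passed, FAS upward and TNFRSF10A downward, against 13.2% of all probes (7.29% higher and 5.95% lower), and 2 calls among 9 probes are near that share. At an unadjusted p under 0.05 there were 3 of 9, against 32.1%. Of the 8 genes tested over all clones 5 moved the same way in 6 of 6 clones, namely TNFRSF1A, FAS and TNFRSF25 upward and TNFRSF10A and TNFRSF10B downward, against 29.7% of all probes (12.7% higher and 17.0% lower). The 5-aza-dC comparisons share their arrays with those between clone types. The test of the interaction, that is whether 5-aza-dC acted differently in the clone types, called none of 9 member probes, against 0.0367% of all probes, and 0 at an unadjusted p under 0.05, against 2.46%.

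Groups did not overlap for 1 of 7 tested member probes between mock clone types, where 21.3% of all probes did not, and for 2 of 8 under 5-aza-dC, where 24.9% did not. With 5-aza-dC 3 of 7 did not overlap in control clones, against 32.4%, and 3 of 9 in knockdown clones, against 19.2%. TNFRSF1A, the 1 between mock clone types and among the 3 in knockdown clones, was tested there through its higher group alone. Over the tested genes the median log2 difference with 5-aza-dC in all clones was 0.14, against -0.05 over all probes.

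**Figure D2:**
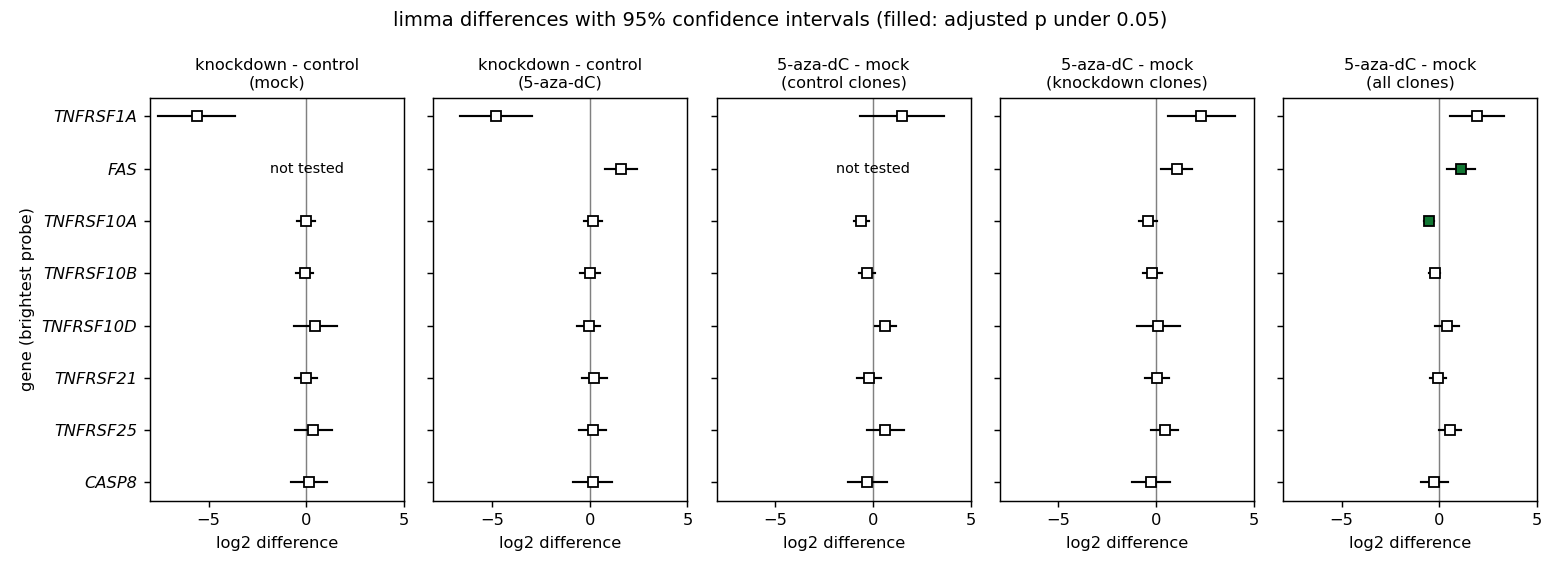
Each panel gives 1 comparison, with the limma log2 difference on the x axis and the 8 genes tested at least once on the y axis. Squares are estimates, lines are 95% confidence intervals and filled squares passed an adjusted p under 0.05. Only FAS at 1.11 and TNFRSF10A at -0.51, both with 5-aza-dC over all clones, are filled, and TNFRSF1A lies farthest from 0 between clone types.

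**Figure D3:**
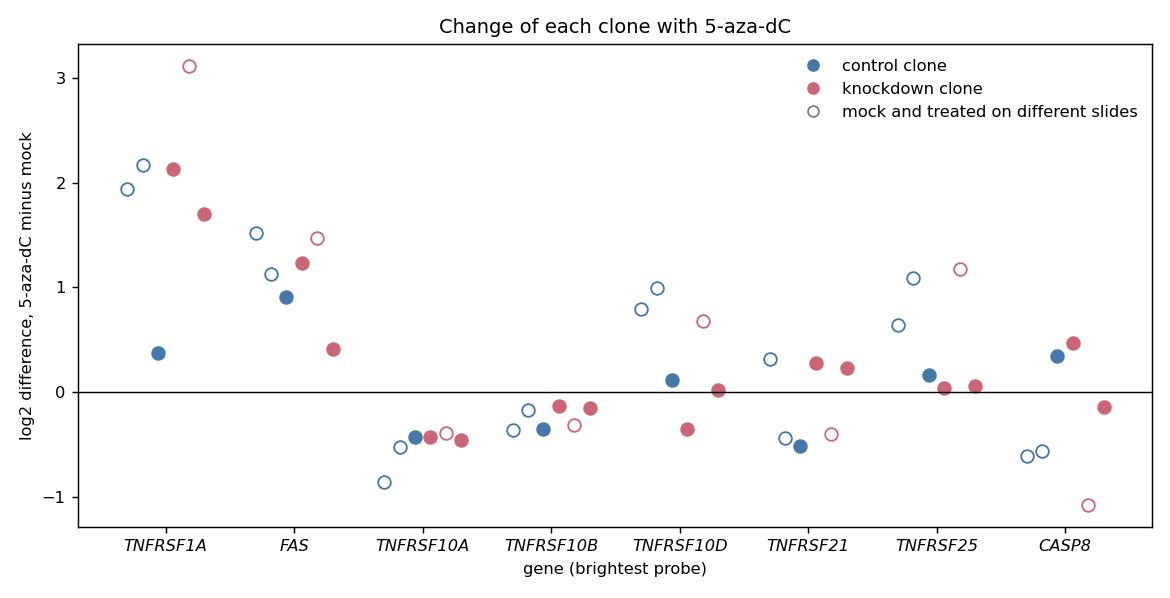
For each gene on the x axis the log2 difference between the treated and the mock array of 1 clone is given on the y axis, for 3 control and 3 knockdown clones. Filled points are clones with both arrays on 1 slide. TNFRSF1A and FAS are above 0 and TNFRSF10A and TNFRSF10B below 0 in all 6 clones, and the filled points of TNFRSF25 lie near 0, between 0.04 and 0.16.

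The rest of the pathway was read from 26 genes by their brightest probes. Of 5 ligands only TNFSF10, which encodes TRAIL, was detected, on all 12 arrays, while TNF, LTA, FASLG and TNFSF15 were detected on none. Of 5 other receptors of the family TNFRSF6B, a decoy for FAS ligand, was detected on all 12 arrays, TNFRSF11B on 4 and EDAR on 3, and NGFR and EDA2R on none. All 5 adaptors or kinases (FADD, TRADD, RIPK1, TRAF2 and CRADD), all 5 inhibitors (CFLAR, XIAP, BIRC2, BIRC3 and BIRC5) and all 6 caspases or mitochondrial genes (CASP6, CASP9, CASP10, BID, BAX and DIABLO) were detected on all 12 arrays.

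TNFSF10 gave -1.52, -0.80 and 0.38 in mock control clones and -0.55, 0.90 and 0.89 after 5-aza-dC. In knockdown clones it gave -2.02, -3.13 and -0.76 after mock and -0.53, -1.04 and 0.66 after treatment. It was higher after treatment in all 6 clones, by 0.51 to 2.09, and the difference over all clones of 1.36 (SE 0.50, adjusted p = 0.0957) did not pass.

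Over all clones 2 of 20 tested pathway genes rose with 5-aza-dC and none fell, where 7.29% of all probes were called higher and 5.95% lower, so the count is near the share over all probes. BIRC3, which encodes the ubiquitin ligase cIAP2 that acts at TNF receptor 1, rose by 1.18 (SE 0.24, adjusted p = 0.00950) in 6 of 6 clones, from -2.42 to -1.01 after mock to -0.76 to 0.13 after treatment. EDAR, the ectodysplasin receptor, rose by 1.35 (SE 0.39, adjusted p = 0.0442). It was detected only in the 3 treated control clones, at -3.59, -2.27 and -3.18, which put it at least 2.08-fold above mock control clones. EDAR thus met the filter for a test only through the group where it was highest, and no knockdown array was detected. Knockdown clone 1 changed by -0.04 for EDAR. With slide as a block both lost the call, at adjusted p = 0.0552 for BIRC3 and 0.190 for EDAR. BIRC3 kept its call in 14 of 16 other settings and EDAR in 5 of 12, and the difference of EDAR was 0.31 (adjusted p = 0.0836) with normexp and quantile normalization, 1.04 (adjusted p = 0.128) without knockdown clone 2 and 1.44 (adjusted p = 0.0910) without knockdown clone 3. Without any 1 control clone EDAR was detected on too few arrays to be tested. The other 18 genes lay between -0.79 and 1.36, with adjusted p of 0.0744 or more, and the median over the 20 was 0.08. In the other comparisons none of the tested pathway genes passed, 18 between mock clone types, 19 under 5-aza-dC, 20 in control clones, 18 in knockdown clones and 20 in the interaction, where the smallest adjusted p was 0.0534, for EDAR in control clones.

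**Figure D4:**
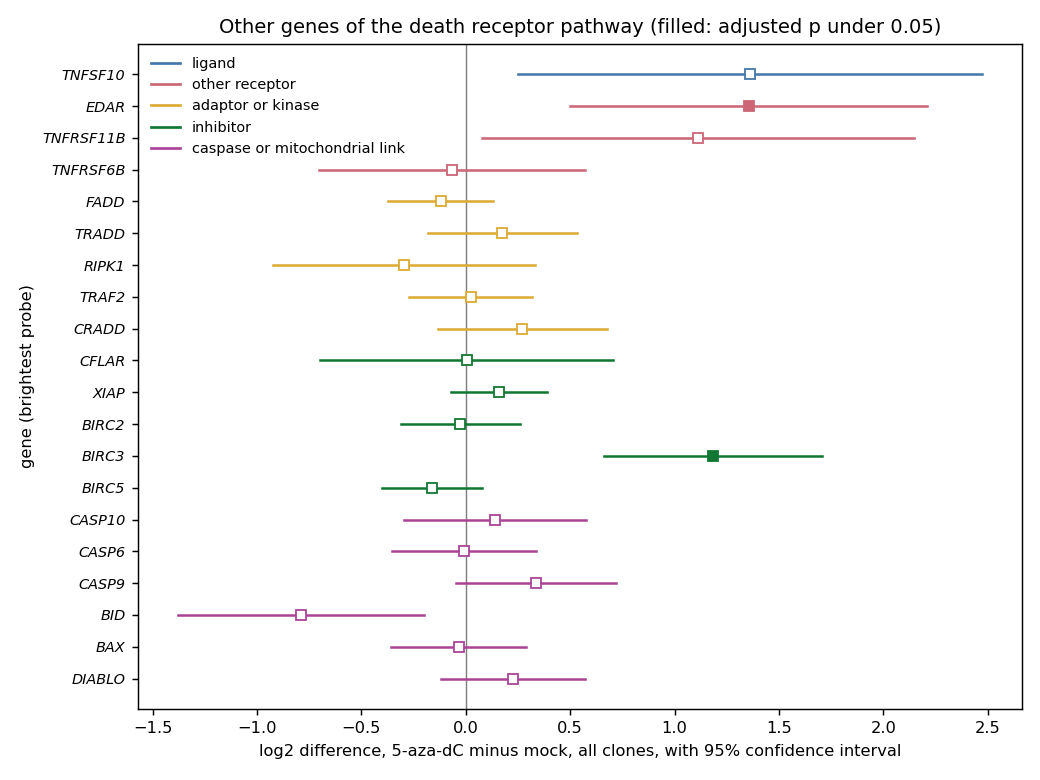
The log2 difference with 5-aza-dC over all clones is given on the x axis with its 95% confidence interval for the 20 pathway genes tested (y axis), coloured by role. Filled squares passed an adjusted p under 0.05, which were EDAR at 1.35 and BIRC3 at 1.18.

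Single markers of other cell types and of the epithelium also changed with 5-aza-dC. The summed level of the 4 neuroendocrine markers, in multiples of the 75th percentile signal, was 0.372 to 0.603 in mock control and 0.132 to 0.903 in mock knockdown clones and 4.26 to 8.32 and 2.59 to 3.47 after treatment. In treated knockdown clones ENO2 was the only one of the 4 detected, at 1.76, 1.58 and 1.33. Over all clones ENO2 rose by 3.33 (SE 0.62, adjusted p = 0.00638). CHGA rose by 3.86 (SE 0.59, adjusted p = 0.00203) but was detected on 0 of 6 knockdown arrays. The epithelial marker EPCAM rose by 3.76 (SE 0.65, adjusted p = 0.00415) and the fibroblast marker COL1A1 by 1.99 (SE 0.35, adjusted p = 0.00505). The epithelial marker KRT8 had lower treated means, 1.51 against 1.97 in control and 1.08 against 1.35 in knockdown clones. KRT18 (4.80 against 4.74, 4.48 against 4.25) and CDX2 (8.75 against 8.59, 8.06 against 8.02) moved by less than EPCAM. The sum of the 6 epithelial markers overlapped between mock and treated arrays in both clone types (329 to 646 and 415 to 499, 226 to 360 and 228 to 423). CDX2 had by far the highest signal and makes up most of this sum, so the overlap says little about the other epithelial markers. The endothelial marker VWF fell by 1.61 (SE 0.44, adjusted p = 0.0363) by its brightest probe, although knockdown clone 3 gave -3.26 on both arrays. That probe was detected on 7 arrays, and the other VWF probes, A_23_P105562 and A_33_P3307267, on 0. INSM1, COL1A2 and PECAM1 were detected on 0 arrays. Their part in the changes of FAS and TNFRSF10A was not tested. In bulk RNA a change in the share of cells that express a gene and a change in RNA per cell cannot be told apart.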

How the data were processed

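Total RNA of 12 samples had been labelled with Cy3 and hybridised to Agilent one-colour human expression arrays. The authors extracted the intensity of each spot with Feature Extraction 10.7.3.1, per the file headers with background correction and without normalization between arrays, and the deposited series table differed from these intensity values by 0.497% at most, through rounding. Later steps of the authors were run in GeneSpring. From the scanner files the processed signal of 50599 probes was used after control spots and outlier spots (268 to 395 per array) had been left out, no spot was saturated, and spots of one probe were averaged. The log2 was taken and the 75th percentile of the array (signal 241 to 359) subtracted. The deposited intensity values are linear, and the log2 step was done here. Positions are those of hg19 in the files, and no exon annotation of that build was used.

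A probe was tested where at least 50% of its spots were well above background on at least 3 arrays of the fit. limma 3.58.1 in R 4.3.3 gave differences, SE and p adjusted by Benjamini-Hochberg across the whole set tested, called at 0.05, and was tested on simulated data. The 3 arrays of a group are separate clones, and their number limits the precision. Clones were paired by the clone number of the labels for mock and treated arrays. Within these pairs, deviations from the group means correlated at 0.217 to 0.366 in control and 0.429 to 0.616 in knockdown clones over 19749 probes. Arrays of different clone numbers were not compared, and some pairs shared a slide, so these values do not test the pairing. The gene was represented by the probe with the highest mean over 12 arrays, and every probe of a member was named. All pathway genes were named with their detection, and values are given for those called and for TNFSF10, the only ligand detected, which was chosen after its values were seen. Members and lists were chosen with earlier results of these data known. Some genes of the pathway and marker lists are not reported here. Alternatives were other normalizations, scales, filters, blocks, arrays in the fit, the methods' t-test and leaving out each clone. A fold bound was used where no array of a group was well above background. Promoter sequences are from RefSeq, GRCh38.p14, where 5 of 9 members had an entry.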

Additional observations from a re-analysis of the deposited data

How the results depend on the processing

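Of the 19 differences at least as large as their SE, 336 alternative values were computed. Only those of FAS and TNFRSF10A over all clones had been called. These 2 account for every lost call, in 12 of 15 settings for FAS and 7 of 16 for TNFRSF10A. The 336 values kept direction and, where tested, side of the threshold in 300, lost the call in 19, gained it in 13 and turned sign in 4. Values within 1 slide had no test and were counted by direction alone. Of the 300, 3 were for FAS and 9 for TNFRSF10A over all clones, and the rest were for differences that had not been called. The sign turned for TNFRSF1A in control clones (-0.0074, all 12 arrays with slide as a block), for TNFRSF25 in control clones (-0.17 with slide as a block and -0.17 within slide 2) and for TNFRSF10D over all clones (-0.0357, clone and slide as blocks). The cause was not tested. A further 27 differences were smaller than their SE, and 17 of them changed sign in some setting, with none called in any.

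The number of member probes called between mock clone types rose from 0 to 1 with all 12 arrays in the fit, with or without slide as a block. Under 5-aza-dC it was 1 with all 12 arrays and 0 to 2 without 1 clone. In control clones treated against mock it was 1 with the array median as scale and 0 to 3 without 1 clone. Over all clones it fell from 2 to 1 with quantile normalization, with normexp and quantile normalization, with outlier spots kept or with detection on every array, and to 0 without a filter or with slide as a block, and lay between 0 and 2 without 1 clone. FAS is not tested where detection on every array is required. With the clone as a replicate block it was 3 over all clones, where TNFRSF1A joined, and with clone and slide as blocks it was 1 over all clones and 1 in knockdown clones, both TNFRSF1A. Between control and knockdown clones no pairing exists, since they are separate colonies.

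With 3 arrays in a group only large differences can pass, and a p above the threshold does not show that levels were equal. Treatment and slide were partly confounded, since all treated control clones lay on slide 2. For FAS, TNFRSF10C and the mock knockdown arrays of TNFRSF1A the signal was near background, where log2 values depend on the processing: with normexp and quantile normalization together the change of FAS over all clones was 0.25. No member gene had more than 1 probe detected on all 12 arrays, so the mean over such probes added nothing to the brightest probe.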

Other observations

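Neighbours of the members, looked up after their values were seen, gave further values. LTBR, the lymphotoxin beta receptor of the TNF receptor family, has its probe on hg19 chromosome 12, 6500070 to 6500129, close to that of TNFRSF1A. Its level was -5.62 ± 0.90 (SD, n = 3) for mock control and -5.72 ± 0.41 (SD, n = 3) in mock knockdown clones and -1.39 ± 0.57 (SD, n = 3) and -2.96 ± 1.17 (SD, n = 3) after 5-aza-dC. Over all clones it was higher after 5-aza-dC (limma, adjusted p = 0.000424). It was detected on 5 of 12 arrays, all of them treated, so the mock means stand for signals not well above background. LTBR thus met the filter for a test only through the treated arrays, where it was high.

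CASP10, the caspase gene next to CASP8 and its close relative, gave different pictures by probe. Its brightest probe, A_33_P3383283, differed by -0.19 between mock clone types. A_33_P3504659 in the same gene gave 1.68, 1.00 and 2.01 in mock control clones and -3.79, 0.98 and -1.49 in mock knockdown clones, where clone 1 was not detected, and 2.13, 2.25 and 2.22 against -2.58, 1.84 and -1.42 after 5-aza-dC. A_24_P3045 was detected in all 6 control arrays and, among knockdown arrays, only in both of clone 2. Neither probe passed between mock clone types, with adjusted p of 0.420 and 0.376, and the clones with low values, 1 and 3, were those in which the second FAS probe was detected. The brightest FAS probe was detected in knockdown clone 2 as well after 5-aza-dC, at -2.28, though not after mock.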
